A study of Drosophila melanogaster with 90 samples.

Results

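Clk, cry and cyc are the 3 genes described here, chosen by name as core circadian clock genes out of the 9027 genes with counts in a time series of female Drosophila melanogaster heads. All 3 were present in the gene count table and passed the filter on low counts. Clk and cyc encode the basic helix-loop-helix proteins CLOCK and CYCLE, which bind each other and activate per, tim, vri, Pdp1 and cwo. PER and TIM then repress CLOCK and CYCLE, while VRI represses and PDP1 activates transcription of Clk itself, so that Clk mRNA is known to run in the opposite phase to per and tim mRNA. cry encodes Cryptochrome, a blue-light photoreceptor that triggers the degradation of TIM in light, and its mRNA is known to share the phase of Clk mRNA, whereas cyc mRNA is known to be constant over the day.

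The females were Canton-S, kept on yeast/glucose food at 25 °C with 12 h of light and 12 h of dark and lights on at 8 AM. One group was mated to a male with Sex Peptide (SP), that is a wildtype male (SP+ females), one to an SP null male (SP- females), and one was kept virgin. SP is made in the male accessory gland and passed with the sperm, and it is known for changing egg laying and receptivity after mating. The labels state neither the age of the flies nor the null allele. Matings took place between 8 and 11 AM, and females were frozen at 10 times after mating: 0.5 h, each hour from 1 to 6 h, 8 h, 12 h and 24 h. Virgins were frozen in parallel, and the course was run 3 times (repeats A, B and C), which the design text calls biological replicates. The 12 h samples were therefore frozen 0 to 3 h after lights off, and the 24 h samples at the same time of day as the start of the course. Heads are a mixture of photoreceptors, brain neurons, glia and fat body, so that a lower level from fewer cells of a type and one from less RNA per cell cannot be told apart.

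Of 90 samples, 87 were analysed, which left 2 libraries for SP+ females at 2 h, SP+ females at 3 h and virgins at 6 h, and 3 for each of the other 27 groups. The library totals lay between 15411046 and 103387056 counts, with a median of 19740478. The largest total was that of repeat A of SP+ females at 24 h. Clk had between 190 and 6383 counts per library, cry between 1419 and 17658 and cyc between 425 and 3075, each with its highest count in that same library. Libraries of SP+ females at 24 h stood apart: they had the largest spread of the 30 groups, with a median standard deviation over genes of 0.158 on the log2 scale, against 0.0706 to 0.121 in the other groups. Calls given below that were lost without the repeat A or the repeat C library of that group are named with the result. Its repeat B library was not left out on its own. The head markers were present: the summed level of 4 photoreceptor markers was 23470 to 33188 CPM in SP+ females, 24851 to 33295 CPM in SP- females and 26374 to 34288 CPM in virgins, and all 4 markers each of neurons, glia and fat body were measured. None of the 4 ovarian germline markers was in the gene table.

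On the dm6 (BDGP6) genome, Clk (FBgn0023076) lies on the minus strand of 3L at 7763233 to 7775603 and has 5 annotated transcripts with 4516 exonic bases in 9 exon blocks. cry (FBgn0025680) lies on the plus strand of 3R at 19212154 to 19215442 with 1 transcript of 1896 exonic bases in 4 blocks, and cyc (FBgn0023094) on the minus strand of 3L at 19813770 to 19815938 with 1 transcript of 1625 bases in 5 blocks. CG32371 lies within Clk on the same strand and shares 0 exonic bases with it. The noncoding gene lncRNA:CR46393 shares 329 exonic bases with cry on the same strand, and how reads there were assigned is not known. Neither of these neighbours was among the 9027 genes with counts. vib overlaps the end of cry by 9 bases on the other strand.

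Levels are given as CPM, the counts of a gene relative to the total of its library after scaling by the trimmed mean of M values (TMM). Over all 87 libraries the median was 36.8 CPM for Clk, 180.2 CPM for cry and 29.02 CPM for cyc. Per kilobase of exon, which allows genes to be compared, the median levels were 8.14 CPM per kb for Clk, 95.04 for cry and 17.9 for cyc. A gene was called where edgeR's quasi-likelihood test, fitted across all 9024 genes tested, gave a Benjamini-Hochberg adjusted p under 0.05, and adjusted p values are from that test unless DESeq2, the exon bins or the exon sums (the exon table added up per gene) are named.

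The first question was how the genes ran over the day within each treatment. Clk and cry were high in the morning, lowest at 12 h and high again at 24 h in all 3 treatments, while cyc did not pass the test of change with time. In SP+ females, Clk had 53.6, 48.6 and 56.8 CPM in repeats A, B and C at 0.5 h, 15.1, 16.5 and 16.8 CPM at 12 h and 61.1, 52.6 and 62.2 CPM at 24 h. In SP- females the values were 50.6, 50.5 and 44.8 CPM at 0.5 h, 11.3, 9.96 and 9.68 CPM at 12 h and 51.2, 49.6 and 51.1 CPM at 24 h. In virgins they were 46.8, 42.3 and 45.2 CPM at 0.5 h, 9.25, 9.72 and 8.34 CPM at 12 h and 45.5, 49.7 and 43.4 CPM at 24 h. Within each treatment, all 12 h libraries lay below all libraries of the other 9 time points.

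The distance between the highest and the lowest group mean of Clk was 1.86 on the log2 scale in SP+ females, 2.60 in SP- females and 2.33 in virgins, against a median over 8692 genes of 0.363 in SP+ females, 0.299 in SP- females and 0.295 in virgins. For cry the distance was 1.35, 1.44 and 1.45 in the same order of treatments, and for cyc 0.15, 0.13 and 0.14. The test of change with time called Clk and cry and not cyc, 2 of the 3 genes in every treatment, where it called 52.6% of all genes in SP+ females, 36.5% in SP- females and 29% in virgins. The adjusted p for Clk was 1.27e-22 in SP+ females, 5.16e-31 in SP- females and 5.68e-27 in virgins. That for cry was 2.04e-22, 7.49e-25 and 5.00e-24, and that for cyc 0.555, 0.851 and 0.9002. Over 0.5 to 12 h alone the same genes were called, where the test called 33.4% of all genes in SP+ females, 31.7% in SP- females and 23.3% in virgins.

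**Figure D1:**
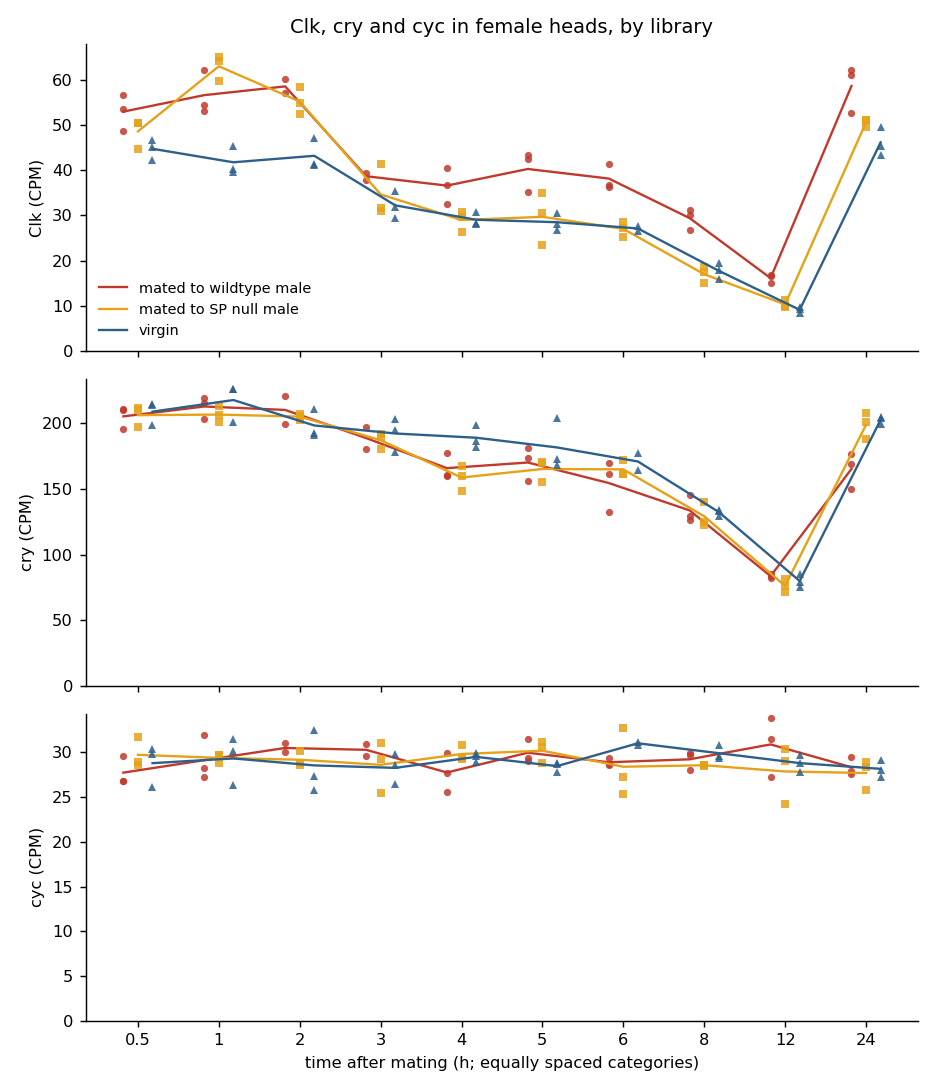
TMM-scaled CPM of Clk (top), cry (middle) and cyc (bottom) against time after mating, drawn as equally spaced categories; each point is 1 library and each line joins the group means. Clk was lowest at 12 h in all 3 treatments, at 16.1 CPM in SP+ females, 10.3 CPM in SP- females and 9.104 CPM in virgins, while cyc stayed between 24.3 and 33.8 CPM in all libraries.

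In the order of levels in SP+ females, the Clk means at 24, 2, 1 and 0.5 h (58.7, 58.6, 56.6 and 52.996 CPM) had overlapping libraries from each to the next. The means at 5, 3, 6 and 4 h (40.3, 38.7, 38.2 and 36.6 CPM) formed a second level of that kind, and the 8 h mean (29.4 CPM) and the 12 h mean (16.1 CPM) each stood clear of their neighbours. In SP- females the 1 h mean of 63.04 CPM stood alone at the top, above 2 h (55.2 CPM), and neighbours at 2 and 24 h, at 0.5 and 3 h, at 6 and 8 h and at 8 and 12 h did not overlap. In virgins the order was 24, 0.5, 2 and 1 h (46.2, 44.8, 43.2 and 41.8 CPM), then 3, 4, 5 and 6 h (32.2, 29.1, 28.5 and 27.1 CPM), then 8 h (17.8 CPM) and 12 h (9.104 CPM), with overlap inside each of these levels and none between them.

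The next comparison asked whether mating to a wildtype male changed these genes relative to virgins at the same time of day. Clk was higher in SP+ females at every time point, by 0.24 to 0.83 on the log2 scale, and every one of their libraries exceeded every virgin library of the same time. The test at single time points called 7 of these 10 differences, and not those at 0.5 h (0.24 ± 0.10, adjusted p 0.272, where 0.266% of all genes were called), 3 h and 4 h. At single time points, between 5.85% and 17.4% of all genes had all libraries of SP+ females above those of virgins. The omnibus test, which asks whether a gene differed at any of the 10 time points, called Clk (adjusted p 7.37e-14) and cry (0.0143) but not cyc (0.662), 2 of 3 genes, where it called 28.6% of all genes. Clk had the 14th smallest p of the 9024 genes.

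The difference in Clk opened early. At 1 h, Clk had 54.5, 53.1 and 62.3 CPM in SP+ females, 64.2, 59.7 and 65.1 CPM in SP- females and 39.7, 45.4 and 40.2 CPM in virgins. At 2 h the values were 60.1 and 57.1 CPM in SP+ females, 58.4, 52.4 and 54.96 CPM in SP- females and 41.1, 47.1 and 41.4 CPM in virgins. Libraries of both mated groups lay above all virgin libraries at both times, while the mated groups overlapped each other. Of all genes, 5.85% at 1 h and 15.2% at 2 h had all SP+ libraries above those of virgins. For SP- females the shares were 4.9% and 11.2%. The log2 difference of SP+ females from virgins was 0.44 ± 0.10 (SE) at 1 h (adjusted p 0.0108) and 0.44 ± 0.11 at 2 h (0.0176), and that of SP- females from virgins was 0.59 ± 0.10 at 1 h (0.000135) and 0.36 ± 0.10 at 2 h (0.0179). The same tests called 0.532% of all genes at 1 h and 1.48% at 2 h for SP+ females, and 0.521% and 4.55% for SP- females. The 1 h call for SP+ females was lost without any 1 of the 3 repeats (0.35 to 0.56), their 2 h call without repeat A (0.37) or B (0.56) and in the exon sums (0.47), and the 2 h call for SP- females without repeat A (0.28) or C (0.33).

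The mated groups still overlapped at 3 h and no longer from 4 h on. From then on, between 3.25% (4 h) and 18.5% (12 h) of all genes had all SP+ libraries above those of SP- females. At 3 and 4 h, Clk in SP+ females was higher than in virgins by 0.26 ± 0.11 and 0.33 ± 0.10, which did not pass the test (adjusted p 0.246 and 0.111, where 4.51% and 0.355% of genes were called). Clk in SP- females differed from virgins by 0.11 ± 0.10 at 3 h and -0.00 ± 0.10 at 4 h, with no call at any time after 2 h. In that pair the share of all genes called was 0.676% at 0.5 h and 2.98% at 3 h. It was 0.0111% at 5 h and likewise 0.0111% at 8 h, then 0.0554% at 24 h, and 0% both 6 and 12 h after mating (where 456 and 339 genes had an unadjusted p under 0.05, and DESeq2 called 0). From 4 h to 8 h the difference between SP- females and virgins lay between -0.06 and 0.06, with 95% intervals that together spanned -0.28 to 0.26. It was 0.18 ± 0.12 at 12 h (95% interval -0.04 to 0.41) and 0.13 ± 0.10 at 24 h (-0.06 to 0.32), neither of them called.

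At 5 h, Clk had 42.4, 35.2 and 43.3 CPM in SP+ females, 23.5, 30.5 and 35.05 CPM in SP- females and 28.2, 30.5 and 26.9 CPM in virgins. At 6 h the values were 36.2, 36.8 and 41.5 CPM in SP+ females, 27.2, 28.6 and 25.3 CPM in SP- females and 27.8 and 26.5 CPM in virgins (2 libraries). SP+ females stood above both other groups at both times, and the SP- and virgin libraries overlapped. Of all genes, 8.79% at 5 h and 11.3% at 6 h had all SP+ libraries above those of SP- females. Against virgins the shares were 11.2% and 17.2%. The difference of SP+ females from virgins was 0.50 ± 0.10 at 5 h (adjusted p 0.00218) and 0.49 ± 0.11 at 6 h (0.0135), where 2.67% and 1.05% of all genes were called. The difference from SP- females was 0.44 ± 0.10 at 5 h (0.0186) and 0.50 ± 0.10 at 6 h (0.00153), where 0.754% and 3.31% were called. The 5 h calls were lost without repeat A (0.46 from virgins, 0.26 from SP- females), that from virgins also without repeat C (0.41), and that from SP- females also without repeat B (0.54). The 6 h call from virgins was lost without any 1 repeat (0.42 to 0.56), the 6 h call from SP- females without repeat C (0.39), and both calls from virgins and the 5 h call from SP- females also in the exon sums (0.41, 0.42 and 0.37) and in separate fits of each time point.

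The largest differences were at the end of the day. At 8 h, Clk had 31.3, 26.8 and 30.2 CPM in SP+ females, 14.99, 17.4 and 18.5 CPM in SP- females and 17.9, 19.5 and 15.9 CPM in virgins. At 12 h the values were 15.1, 16.5 and 16.8 CPM in SP+ females, 11.3, 9.96 and 9.68 CPM in SP- females and 9.25, 9.72 and 8.34 CPM in virgins. SP+ females again stood clear of both other groups, which overlapped each other. Of all genes, 11.8% at 8 h and 18.5% at 12 h had all SP+ libraries above those of SP- females. Against virgins the shares were 9.65% and 14.7%. Clk in SP+ females was higher than in virgins by 0.73 ± 0.11 at 8 h (adjusted p 2.39e-06, 3 of 3 libraries) and 0.83 ± 0.11 at 12 h (1.91e-07, 3 of 3 libraries), a fold of 1.66 and 1.78, where 3.67% and 6.32% of all genes were called. It was higher than in SP- females by 0.79 ± 0.11 (3.84e-07) and 0.64 ± 0.11 (4.20e-05), where 5.87% and 9.82% were called. The fat body marker Apoltp, a lipid transfer particle gene, was also higher in SP+ females at 12 h, by 0.72 ± 0.19 from virgins (adjusted p 0.0133) and 0.73 ± 0.19 from SP- females (0.009203), and FASN1, the fatty acid synthase gene, by 0.54 ± 0.18 from SP- females. The summed level of all 4 fat body markers at 12 h was 24104 CPM in SP+ females, 23175 CPM in SP- females and 24492 CPM in virgins. The part of these markers in the result for Clk was not tested. At 8 h, 0 of the 16 measured markers was called in edgeR's test for SP+ females against virgins and 0 against SP- females, with 2 and 1 at an unadjusted p under 0.05 and 0 and 0 called by DESeq2.

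At 24 h, Clk had 61.1, 52.6 and 62.2 CPM in SP+ females, 51.2, 49.6 and 51.1 CPM in SP- females and 45.5, 49.7 and 43.4 CPM in virgins. The SP+ libraries were still the highest, with repeat B only just above the SP- libraries. At 24 h, 17.4% of all genes had all SP+ libraries above those of virgins and 16.8% above those of SP- females. The difference in Clk was 0.35 ± 0.10 from virgins (adjusted p 0.00554) and 0.21 ± 0.10 from SP- females (0.0863), at a time point where 29.2% and 28.3% of all genes were called. The call from virgins was lost without the repeat C library of SP+ females at 24 h (0.30), without repeat A (0.29) or repeat C (0.26) of all groups, and in a separate fit of the 24 h libraries (adjusted p 0.0502). The same glial and fat body markers as given for cry below differed there too, and their part was not tested.

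**Figure D2:**
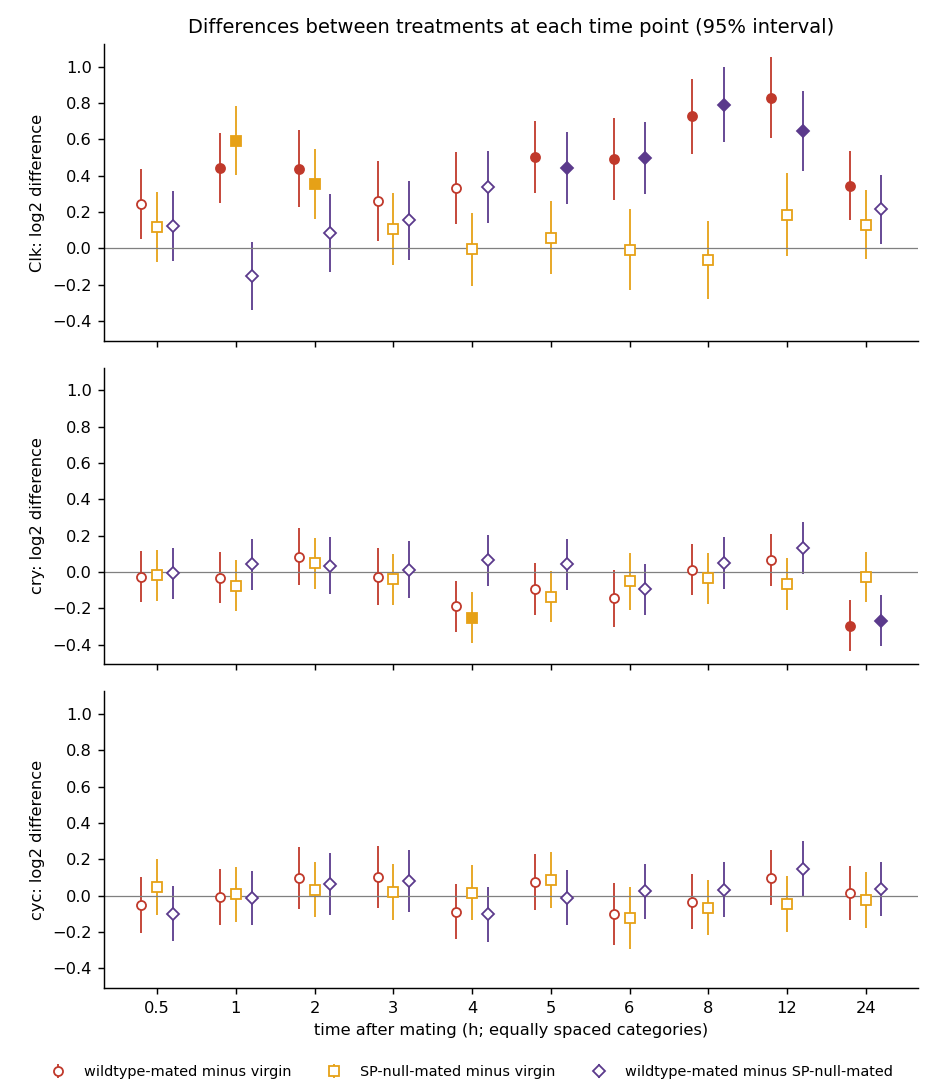
Log2 differences between treatments in Clk (top), cry (middle) and cyc (bottom) at each time point with 95% intervals; filled symbols passed the adjusted p of 0.05 over all genes and open symbols did not. Clk in SP+ females stood 0.24 to 0.83 above virgins at all 10 time points, SP- females were called above virgins at 1 and 2 h, and cyc had no filled symbol.

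Tested over the whole course, SP- females differed from virgins in Clk (omnibus adjusted p 0.000235, where 7.06% of all genes were called) but not in cry (0.297) or cyc (0.938). SP+ females differed from SP- females in Clk (7.91e-11, the 20th smallest p, where 18.5% of all genes were called) but not in cry (0.122) or cyc (0.662). Without repeat A the call for SP- females was lost (adjusted p 0.0921). The comparisons share groups: the same virgins serve both mated groups, and the same SP+ libraries are set against both others.

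Whether a difference in Clk itself changed with time was tested directly. The adjusted p was 0.0305 between SP+ females and virgins, 0.0181 between SP- females and virgins and 3.61e-05 between SP+ and SP- females, where 14.2%, 5.62% and 11.8% of all genes were called. Only the third held in all alternatives that were run, with adjusted p up to 0.0248 (without repeat A). The test against virgins was not passed for SP+ females without repeat A (0.296), B (0.207) or C (0.178) or in the exon sums (0.142), and not for SP- females without repeat A (0.729) or B (0.1199). Neither cry (adjusted p 0.0757, 0.687 and 0.114 for these pairs) nor cyc (0.647, 0.933 and 0.627) was called, although DESeq2 called cry for SP+ females against virgins (0.0206) and against SP- females (0.0392).

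The fall over the day was summarised as the mean of 8 and 12 h minus the mean of 0.5 and 1 h on the log2 scale. Clk fell by 1.33 ± 0.07 (SE) in SP+ females, by 2.06 ± 0.08 in SP- females and by 1.77 ± 0.08 in virgins (adjusted p 3.07e-23, 1.74e-32 and 1.90e-28). cry fell by 0.98 ± 0.05 in SP+ females, by 1.06 ± 0.05 in SP- females and by 1.05 ± 0.05 in virgins (adjusted p 7.29e-24, 8.26e-26 and 1.11e-25). In each treatment 2 of the 3 genes were called in this direction, where 39% of all genes were called in SP+ females, 32.1% in SP- females and 26.2% in virgins in either direction.

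The fall of Clk was shallower in SP+ females than in virgins by 0.44 ± 0.10 (adjusted p 0.00258) and shallower than in SP- females by 0.73 ± 0.10 (1.07e-06), where 9.56% and 6.8% of all genes were called. The difference between SP- females and virgins was -0.30 ± 0.11, which did not pass the test over all genes (adjusted p 0.328, unadjusted p 0.00692, where 0.155% were called). The call against virgins was lost without repeat B (0.45, adjusted p 0.0573) and in the exon sums (0.46, adjusted p 0.0529). For cry the same differences were 0.07 ± 0.07 from virgins, with a 95% interval of -0.07 to 0.21, and 0.07 ± 0.07 from SP- females, with an interval of -0.07 to 0.21, and neither passed the test (adjusted p 0.644 and 0.624).

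**Figure D3:**
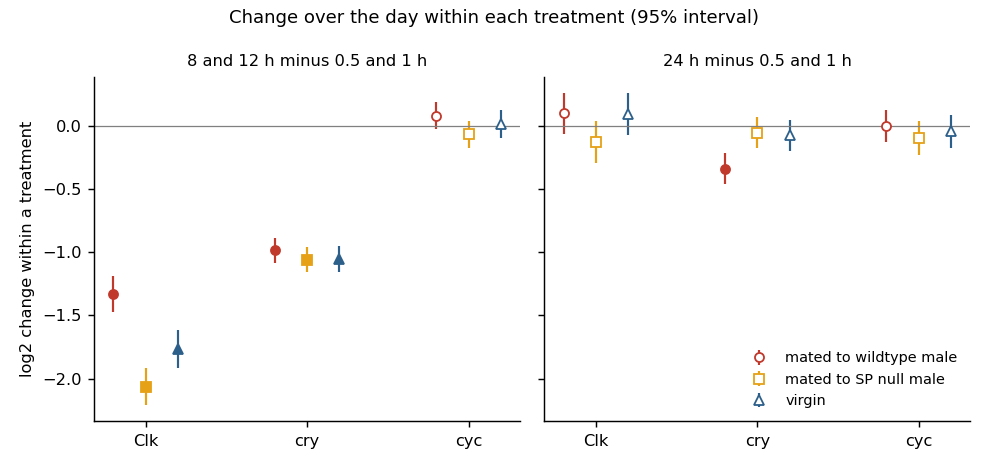
Log2 change within each treatment for Clk, cry and cyc with 95% intervals, from 0.5 and 1 h to 8 and 12 h (left) and to 24 h (right); filled symbols passed the adjusted p of 0.05. Clk fell least in SP+ females, at -1.33, against -2.06 in SP- females and -1.77 in virgins, while at 24 h only cry in SP+ females was called, at -0.34.

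cry fell to its lowest level at 12 h in all treatments. Its 12 h values were 85.1, 81.95 and 83.8 CPM in SP+ females, 81.1, 75.9 and 71.5 CPM in SP- females and 75.4, 85.01 and 79.3 CPM in virgins. The SP+ libraries lay above all SP- libraries, as they did for 18.5% of all genes, and overlapped those of virgins. Neither difference was called. At 4 h cry had 178, 161 and 159.6 CPM in SP+ females, 160.1, 167 and 149 CPM in SP- females and 199, 186 and 182 CPM in virgins. Both mated groups were below all virgin libraries there, as were 12.3% of all genes in SP+ females and 11% in SP- females. The difference from virgins was -0.19 ± 0.07 in SP+ females (adjusted p 0.232) and -0.25 ± 0.07 in SP- females (0.0415, where 2.19% of all genes were called). The call in SP- females was lost without repeat A (-0.22), without repeat C (-0.23) and in a separate fit of the 4 h libraries (-0.26, adjusted p 0.109).

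At 24 h cry was lower in SP+ females. It had 169, 177 and 149.7 CPM in SP+ females, 188, 201 and 208 CPM in SP- females and 204, 205 and 199 CPM in virgins. No SP+ library reached the lowest library of the other groups, and repeat C was the lowest. At 24 h, 14.1% of all genes had all SP+ libraries below those of virgins and 14.3% below those of SP- females. The difference was -0.29 ± 0.07 from virgins (adjusted p 0.00155) and -0.27 ± 0.07 from SP- females (0.00389), where 29.2% and 28.3% of all genes were called. Without the repeat C library of that group the difference from SP- females was -0.20 (adjusted p 0.0774). Without repeat C of all groups it was -0.25 from virgins and -0.18 from SP- females (0.0907 and 0.239), and in a separate fit of the 24 h libraries the adjusted p was 0.0543 and 0.0626. Of the 4 glial markers, repo, a glial transcription factor gene, was also lower in SP+ females than in virgins at 24 h (-0.60 ± 0.13). So was moody, a receptor gene of the blood-brain barrier glia (-0.23 ± 0.06). Of the 4 fat body markers, FASN1 was lower (-0.64 ± 0.18) and Apoltp higher (0.51 ± 0.19). The summed level of all 4 glial markers was 993 CPM in SP+ females, 975 CPM in SP- females and 979 CPM in virgins, and so was not lower in SP+ females. That of all 4 fat body markers was 20601.5, 24216.4 and 19313.4 CPM in the same order. The part of these markers in the result for cry was not tested.

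Relative to its own morning level, cry at 24 h stood at -0.34 ± 0.06 in SP+ females (adjusted p 2.30e-05), -0.05 ± 0.06 in SP- females (0.665) and -0.07 ± 0.06 in virgins (0.591). The same test called 39.7%, 7.88% and 4.65% of all genes in these treatments. The return differed between SP+ females and virgins by -0.27 ± 0.09 (adjusted p 0.0218, where 22.9% of all genes were called) and from SP- females by -0.29 ± 0.09 (0.0233, 13.1%). Both calls were lost without repeat A (-0.23 and -0.33), without repeat C (-0.23 and -0.18) and without the repeat C library of SP+ females at 24 h alone (-0.20 and -0.22). Clk at 24 h stood at 0.10 ± 0.08 relative to its morning level in SP+ females, -0.13 ± 0.08 in SP- females and 0.10 ± 0.09 in virgins, and none of these or of their differences was called. The omnibus call of cry against virgins was lost without repeat A (adjusted p 0.0936), without repeat C (0.145) and without that single library (0.07404).

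cyc showed no call in any comparison of treatments or times. Its libraries ranged over 25.6 to 33.8 CPM in SP+ females, 24.2 to 32.7 CPM in SP- females and 25.8 to 32.5 CPM in virgins, with medians of 29.4, 28.9 and 29.1 CPM. At single time points the differences from virgins ran from -0.10 to 0.10 in SP+ females and from -0.13 to 0.08 in SP- females, and all of their 95% intervals together spanned -0.29 to 0.27. The smallest adjusted p among the 30 single contrasts of cyc was 0.244, with an unadjusted p of 0.0645, and DESeq2 called 0 of the 30. From 0.5 and 1 h to 8 and 12 h, cyc changed by 0.08 ± 0.05 in SP+ females, -0.07 ± 0.05 in SP- females and 0.02 ± 0.06 in virgins, none of which passed the test. Only 4.43% of genes in SP+ females, 4.76% in SP- females and 6.49% in virgins had a smaller distance between their highest and lowest time point than cyc.

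Ratios within a library do not depend on how libraries are scaled. At 12 h there were 19.3 ± 1.4 Clk counts per 100 cry counts in SP+ females, 13.5 ± 0.385 in SP- females and 11.4 ± 0.876 in virgins (SD, n = 3 each). This ratio was higher in every SP+ library than in every virgin library at all 10 time points, and higher than in every SP- library at 5, 6, 8, 12 and 24 h. It was also higher in every SP- library than in every virgin library at 1, 2, 12 and 24 h. How often the ratio of other pairs of genes separates the groups in this way was not computed. Against cyc there were 52.8 ± 8.56 Clk counts per 100 cyc counts at 12 h in SP+ females, 37.1 ± 2.79 in SP- females and 31.7 ± 3.09 in virgins. The SP+ libraries exceeded the virgin libraries in this ratio at 8 of 10 time points, with overlap at 0.5 and 3 h. At 24 h Clk per 100 cry was 35.8 ± 5.91 in SP+ females, 25.5 ± 1.498 in SP- females and 22.8 ± 1.34 in virgins. A lower cry count also raises this ratio. cry in SP+ females was itself lower at 24 h (-0.29 from virgins, -0.27 from SP- females) and at 4 h (-0.19 from virgins, not called).

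The exon table lists 7 bins of Clk and none of cry or cyc. The bins held 23.6% to 38.4% of the Clk counts of a library, with a median of 31.1%, and 5 of them had enough counts to be tested. All 5 changed with time in every treatment, where 13.5% of all bins were called in SP+ females, 7.5% in SP- females and 5.17% in virgins. The omnibus test called 4 of the 5 bins between SP+ females and virgins, 1 between SP- females and virgins and 2 between SP+ and SP- females, where 5.91%, 0.473% and 2.51% of all bins were called. Bin 001, the deepest with a median of 104 counts, made up a median of 16.1% of Clk counts in SP+ females, 15.3% in SP- females and 14.5% in virgins. At 8 h it was higher in SP+ females by 0.96 ± 0.19 than in virgins (adjusted p 0.00379) and by 0.77 ± 0.19 than in SP- females (0.0425), and bin 007 by 1.04 ± 0.24 (0.0221) and 1.14 ± 0.24 (0.00892). These 2 of the 5 bins were called at 8 h, where 0.198% and 0.282% of all bins were called. At 12 h, 0 of the 5 were called in either pair, where 1.08% and 1.36% of all bins were called. Against virgins, 0 were also called at 1, 2 and 5 h (0.107%, 0.168% and 0.00763% of all bins). At 6 h 1 was called and at 24 h 3 (0.221% and 8.88%). The fall over the day in bin 001 was -1.36 ± 0.12 in SP+ females, -1.74 ± 0.13 in SP- females and -1.87 ± 0.14 in virgins. No bin was called for a difference in that fall between treatments, while 2 were called between SP+ and SP- females when library sizes came from the exon counts. Bins of 1 gene share reads and libraries and are not replicates, and their coordinates are not given in the table.

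Of 5 genes that CLOCK and CYCLE activate, per, tim, vri and Pdp1 rose over the day in all 3 treatments, opposite to Clk, and cwo rose in virgins. per and tim encode the repressors of CLOCK and CYCLE, vri and Pdp1 the repressor and the activator of Clk, and cwo a repressor that binds the same sites as CLOCK and CYCLE. All 5 changed with time in every treatment, where that test called 52.6% of all genes in SP+ females, 36.5% in SP- females and 29% in virgins. From 0.5 and 1 h to 8 and 12 h, tim changed by 2.55 ± 0.21 in SP+ females, 2.52 ± 0.20 in SP- females and 2.61 ± 0.21 in virgins, vri by 2.66 ± 0.17, 2.48 ± 0.17 and 2.49 ± 0.17, and per by 2.12 ± 0.16, 2.03 ± 0.16 and 2.15 ± 0.16. Pdp1 changed by 0.59 ± 0.09 in SP+ females, 0.91 ± 0.09 in SP- females and 0.76 ± 0.09 in virgins. cwo rose by 0.51 ± 0.09 in virgins, and its values of 0.11 ± 0.09 in SP+ females and -0.11 ± 0.09 in SP- females did not pass the test. Changes over the day, in either direction, were called for 39% of all genes in SP+ females, 32.1% in SP- females and 26.2% in virgins. In virgins the highest mean of all 5 was at 12 h, when Clk was lowest. The difference of this change between treatments was called for 1 of the 5, cwo, in SP+ females against virgins (-0.40 ± 0.13, adjusted p 0.0397) and in SP- females against virgins (-0.62 ± 0.13, 0.0137), where 9.56% and 0.155% of all genes were called. Both calls were lost without any 1 repeat (-0.45 to -0.33 and -0.70 to -0.56) and in the exon sums (-0.17 and -0.49).

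Between SP+ females and virgins the omnibus test called 4 of the 5: cwo (adjusted p 2.99e-06), tim (0.00796), vri (0.0237) and per (0.0403), but not Pdp1 (0.476), where 28.6% of all genes were called. The calls of tim, vri and per were lost without repeat A (adjusted p 0.732, 0.836 and 0.637) or repeat C (0.394, 0.481 and 0.322), those of vri and per in the exon sums (0.0904 and 0.213), and that of per also without the repeat A (0.0617) or repeat C library (0.0721) of SP+ females at 24 h. Between SP- females and virgins it called cwo (8.91e-05, where 7.06% of all genes were called), a call lost without repeat A (0.0649) and in the exon sums (0.0626). Between SP+ and SP- females it called none of the 5, where 18.5% of all genes were called (adjusted p from 0.07998 for tim to 0.359 for vri, with an unadjusted p under 0.05 for tim alone, 0.0184, and 1 of the 5 called by DESeq2). Without repeat B, tim (1.76e-05) and vri (3.04e-05) were called in that pair. In SP+ females against virgins, the single differences ran over -0.48 to -0.12 for per, negative at 10 of 10 time points, -0.82 to 0.75 for tim and -0.58 to 0.05 for vri, both negative at 9 of 10 and positive at 24 h. None of those of per and vri was called, 2 and 3 of them had an unadjusted p under 0.05, and of tim the 24 h difference alone was called. At 8 h, vri averaged 233 ± 5.18 CPM in SP+ females, 296 ± 46.5 CPM in SP- females and 312 ± 40.4 CPM in virgins (SD, n = 3 each), and per 134 ± 13.7, 165 ± 24.9 and 150.0 ± 11.1 CPM. At 12 h, tim averaged 603 ± 60.9, 688 ± 35.9 and 797 ± 84.7 CPM and Pdp1 718 ± 32.7, 854 ± 77.9 and 827 ± 54.8 CPM in the same order of treatments. At that time vri averaged 347 ± 26.7, 344 ± 23.5 and 413 ± 27.3 CPM and per 163 ± 6.80, 164 ± 10.7 and 214 ± 40.1 CPM. The mated groups were thus close to each other in vri and per at 12 h. None of the 8 and 12 h differences of these genes was called. At 24 h tim was higher in SP+ females than in virgins by 0.75 ± 0.28 (adjusted p 0.0353, where 29.2% of all genes were called). The call was lost without the repeat A (a log2 difference of 0.55) or repeat C library (0.78) of SP+ females at 24 h, and without repeat A or C of all groups (0.51 and 0.74). At 24 h tim was also called higher than in SP- females, by 0.84, where 28.3% of all genes were called. This call was lost without the same single libraries (0.63 and 0.86) and without repeat A or C of all groups (0.52 and 0.96). Adjustment over 30 contrasts lost both calls of tim.

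cwo was called higher at 0.5, 1 and 2 h in SP+ females and at 1 h in SP- females, while Clk was called at 1 and 2 h in both. At 1 h it averaged 134 ± 13.9 CPM in SP+ females, 145 ± 26.1 CPM in SP- females and 86.8 ± 2.33 CPM in virgins. The difference from virgins was 0.54 ± 0.13 at 0.5 h, 0.62 ± 0.13 at 1 h and 0.67 ± 0.15 at 2 h in SP+ females (adjusted p 0.0495, 0.00603 and 0.00421), and 0.74 ± 0.13 at 1 h in SP- females (0.000533). In the exon sums the 3 calls of SP+ females were lost. The 0.5 h call was also lost without any 1 repeat (log2 differences of 0.50 to 0.60), the 1 h call in SP+ females without repeat B (0.58) or C (0.57), the 2 h call without repeat A (0.69) or B (0.65), and the 1 h call in SP- females without repeat C (0.56). At 8 h, when Clk was higher in SP+ females, cwo differed from virgins by 0.34 ± 0.13 in them and by 0.10 ± 0.13 in SP- females, and neither passed the test (adjusted p 0.164 and 0.998).

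**Figure D4:**
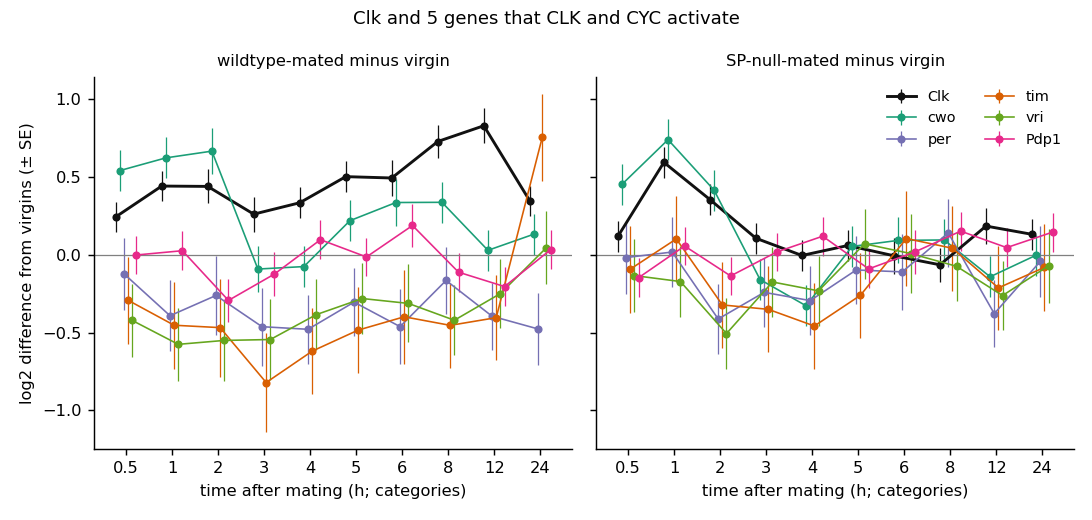
Log2 differences from virgins (± SE) of Clk and 5 genes that CLOCK and CYCLE activate, in SP+ females (left) and SP- females (right), against time after mating as equally spaced categories. Clk and cwo lay above virgins at 1 and 2 h in both mated groups, and Clk alone of the 6 stayed above virgins at every time point in SP+ females, at 0.73 at 8 h and 0.83 at 12 h.

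The other clock lists were tested in the same way, by tests that called 28.6% of all genes in SP+ females against virgins, 7.06% in SP- females against virgins and 18.5% between SP+ and SP- females. Of 12 genes for kinases, phosphatases and protein turnover in the clock, the omnibus test called 0 between SP+ females and virgins, 0 between SP- females and virgins and 1 between SP+ and SP- females, the ubiquitin ligase gene ctrip (adjusted p 0.0437). Of 5 translation and other clock factors, 1 was called in SP+ females against virgins, kay (0.0215), which was lower at 24 h with a log2 difference of -0.50 ± 0.11, 0 in SP- females against virgins, and 2 between the mated groups, Eip75B (0.03005) and Atx2 (0.0419). Of 10 neuropeptide and output genes, 1 was called in SP+ females against virgins, the receptor gene of the clock neuropeptide PDF, Pdfr (0.00422), 0 in SP- females against virgins, and Pdfr again between the mated groups (0.00118). Pdfr was lower in SP+ females at 12 h, with log2 differences of -0.27 ± 0.08 from virgins and -0.28 ± 0.08 from SP- females. It was also called lower at 24 h than in both other groups, where 29.2% and 28.3% of all genes were called. At 24 h it averaged 73.8 ± 3.07 CPM in SP+ females, its lowest mean there, and 100 ± 10.3 CPM in SP- females (SD). Where 0 genes of a list were called, an unadjusted p under 0.05 was found for 2 of the 12 in SP+ females against virgins, and in SP- females against virgins for 0 of the 12, 1 of the 5 and 0 of the 10; DESeq2 called 0 in each. Without the repeat A or repeat C library of SP+ females at 24 h, the omnibus calls of kay (0.141 and 0.146), ctrip (0.07396 and 0.0749), Eip75B (0.0807 and 0.0824) and Atx2 (0.128 and 0.218) were lost. The 24 h difference of kay was no longer called without repeat A of all groups (-0.31). The omnibus calls of Pdfr were lost without repeat B (0.336 against virgins and 0.169 against SP- females), and its 12 h calls without any 1 repeat. Its 24 h call against SP- females held in all 12 alternatives. That against virgins was lost without repeat B (-0.27) or C (-0.24) and in a separate fit of the 24 h libraries (-0.34).

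Across the 30 group means, which share their libraries and the time of day, cry followed Clk with a Pearson r of 0.89 and ranked 30th of 8691 genes. The genes most like Clk were CG10513 (r = 0.96), CG17646 (0.95), CG10433 (0.95), Ugt35B1 (0.94), a UDP-glycosyltransferase gene, and IP3K1 (0.94), an inositol trisphosphate kinase gene. Those least like it were CG10479 (-0.95), Hydr2 (-0.94) and rols (-0.94), and tim (-0.92), Pdp1 (-0.91), vri (-0.91) and per (-0.89) followed close behind. cwo had an r of -0.19 with Clk over all groups, but -0.96 within virgins, against -0.20 within SP+ females and -0.03 within SP- females. The genes most like cry were SecCl (0.96), Ugt35B1 (0.95), Ugt302C1 (0.94), trpl (0.94), a light-activated channel gene of photoreceptors, and CG7724 (0.94). For cyc the highest values were lower: CG34116 (0.66), CG5080 (0.65), CG7685 (0.63), CG14194 (0.63) and CG15082 (0.61).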

How the data were processed

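RNA from heads dislodged from flash-frozen females was sequenced as stranded poly(A)-selected libraries, per the labels' protocols. The submitters' processing notes name Trimmomatic 0.39, STAR 2.7.5a, HTSeq 0.11.2, edgeR, dm6 and BDGP6. Both deposited tables hold raw counts: one of 9027 genes, each reaching at least 10 counts in some library, and one of exon bins (16011 bins of 4143 genes, holding 10.3% to 14.5% of the gene counts). Symbols were matched for 8977 identifiers, and positions were taken from the Ensembl annotation of BDGP6.

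edgeR 4.0.16 (R 4.3.3, limma 3.58.1) was run on the counts of 87 libraries with filterByExpr over the 30 groups, whose minimum count was 10 and minimum total 15 and which 9024 genes passed, TMM, 1 mean per group and a robust quasi-likelihood fit. F tests of several contrasts together and tests of single contrasts were adjusted over all genes (Benjamini-Hochberg) within each test. The SE of a log2 change is its size over the root of its F value. Levels use a prior count of 2 on the log2 scale, and likeness was computed for genes with a mean of at least 1 log2 CPM. The exon bins were fitted with the library sizes of the gene table. The code was tested on simulated data.

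Samples were grouped by their treatment and time labels. The design text says that the series was repeated 3 times, and the letters were taken to mark those repeats; deviations of 84 pairs of libraries with the same letter and time correlated with a median of 0.0784 (-0.229 to 0.335), 36 of them above 0.1. The lowest chi-square per degree of freedom between libraries of a group was 6.68, so none was a duplicate. The alternatives were RLE size factors, DESeq2 1.42.0, no low-count filter, exon sums, a replicate block, leaving out repeats or single libraries, separate fits, adjustment over 30 contrasts, and 24 h left out. Named genes are the 3 genes in every comparison, clock-list genes called in an omnibus test, the 5 CLOCK and CYCLE targets, the 5 genes most like each and the 3 least like Clk; markers and other values were chosen after they were seen. The 3 genes and the lists were chosen with earlier results of these data known. A promoter motif search was not run.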

Additional observations from a re-analysis of the deposited data

Results flagged for a closer look

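The difference between treatments in Clk changed with time in all 3 pairs by a test of the change itself (edgeR quasi-likelihood, adjusted over all genes): adjusted p 0.0305 between SP+ females and virgins, 0.0181 between SP- females and virgins, and 3.61e-05 between SP+ and SP- females. The fall of Clk over the day differed between SP+ females and virgins by 0.44 on the log2 scale and between SP+ and SP- females by 0.73. The return of cry at 24 h to its morning level differed between SP+ females and virgins by -0.27 and between SP+ and SP- females by -0.29. The change with time of Clk was no longer called for SP+ females against virgins without any 1 repeat and in the exon sums, nor for SP- females against virgins without repeat A or B, and both cry results were no longer called without repeat A, repeat C or the repeat C library of SP+ females at 24 h alone. The difference in the fall of Clk from virgins was no longer called without repeat B and in the exon sums. Each was picked out because an effect differed between time points or between treatments. No group had the 4 libraries that a search for single outlying libraries needs.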

How the results depend on the processing

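Of the recomputed tests of Clk, cry and cyc, 1587 kept their direction and their side of the threshold, 52 lost a call and 5 gained one. Of those of the other clock genes, 496 kept both, 141 lost a call, 4 gained one and 2 had the other sign. With the replicate block, all 153 results of the 3 genes kept their call, and the fall of Clk differed by 0.44 from virgins and by 0.73 from SP- females in SP+ females; the block raised the count of genes called for SP- females against virgins in that test to 24, against 14. The Clk differences of SP+ females at 8 and 12 h from both other groups and that of SP- females from virgins at 1 h were called under all 12 alternatives run for them, and the omnibus calls of Clk for SP+ females against both other groups under all 10.

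The exon sums, which hold Clk alone of the 3, gave a difference in its fall of 0.46 between SP+ females and virgins (adjusted p 0.0529). With libraries left out, that difference was between 0.42 and 0.45. The omnibus adjusted p was then between 0.0238 and 0.145 for cry in SP+ females against virgins, between 0.000217 and 0.0921 for Clk in SP- females against virgins and between 0.0427 and 0.736 for cry between SP+ and SP- females, where DESeq2 gave 0.0438. Atx2 at 24 h, lower in SP+ females (-0.25 from virgins and -0.32 from SP- females), had the other sign in the exon sums (0.13 and 0.0070, neither called). Its call from virgins was also lost without the repeat C library of SP+ females at 24 h (-0.18). The cause of these changes was not tested.

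The omnibus test called 2585 genes for SP+ females against virgins, 637 for SP- females against virgins and 1671 for SP+ against SP- females. With 1 repeat left out, and so fewer libraries, the counts were 1166 to 1238, 193 to 350 and 677 to 769, and in the exon sums, with 3703 genes, 335, 45 and 185. Raw totals in place of TMM moved the levels by at most 0.0984 on the log2 scale.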
